A study of Mus musculus with 4 samples.

Results

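Cd4, Cd8a, Cd8b1, Zbtb7b and Runx3 encode the coreceptors of T cells and the pair of transcription factors that set which coreceptor a T cell keeps, and their chromatin accessibility was measured here in 17 labelled T cell populations of the mouse gut and of a gut tumor. The 5 genes were taken by name out of the 21888 genes counted, and all 5 were measured in both libraries. For each gene, ATAC fragments with an end in the gene span or within 5 kb of it were counted for every cell label and library, and are given as fragments per 1000000 of the label's own (FPM). The same was done in tiles of 500 bp over Cd4, over the Cd8b1 and Cd8a genes to 50 kb past Cd8a, and over Zbtb7b and Runx3, with 25 kb on each side of Cd4, Zbtb7b and Runx3.

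CD4 binds MHC class II and CD8 binds MHC class I, and both bring the kinase Lck to the T cell receptor. CD8 on conventional killer T cells is a dimer of an alpha chain (Cd8a) and a beta chain (Cd8b1), while many T cells of the gut epithelium carry alpha chains alone, written CD8aa. In the thymus the zinc finger protein ThPOK, encoded by Zbtb7b, directs cells to the helper lineage, and the Runt domain factor RUNX3 directs them to the killer lineage, in which it represses Cd4 and Zbtb7b and acts on Cd8 enhancers.

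The cells were T cells sorted from AKP tumors of mice and from the tumor-free cecum beside them, 4 weeks after transplantation. AKP tumors grow from genetically altered intestinal organoids injected into the wall of the cecum of recipient mice, so the donor cells carry these alterations and the T cells are those of the host. The strain, sex, age and number of the animals behind each library are not given in the sources used here. Each tissue gave 1 ATAC library and 1 RNA library from the same nuclei, of which the RNA library was not used here. The labels were made by the authors from the RNA of the same nuclei, so RNA of the coreceptors could take part in a label, while the ATAC fragments counted here could not.

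Labels were pooled into 5 classes. The CD4 class held 9 labels (IL-10+ Treg, IL-10- Treg, CCR7+ CD4, Newly activated CD4, PD1+ CD4, Mucosal Th1, Th17, Th2 and Tfh-like), with 3072 cells in cecum and 3063 in tumor. The CD8ab class held CCR7+ CD8, Cytotoxic CD8 and PD1+ CD8, with 1152 and 1784 cells. CD8aa was a label of its own with 407 and 473 cells. The gamma-delta class held Cytotoxic gdT and Rorgt gdT, with 961 and 868 cells, and the innate-like class held Innate-like T#1 and Innate-like T#2, with 1563 and 2278 cells. PD1+ CD4 had only 14 cells in cecum against 616 in tumor.

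The cecum library held 66466111 fragments and the tumor library 96747563, with a median of 4374 and 5846 fragments per labelled cell, and 84 labelled barcodes occurred in both libraries. With 1 library per tissue, labels of a library are not replicates, so no test was made and no p-value is given. Intervals are exact at 95% and cover counting error only, and the level that a count of 0 allows is given as that of 3 fragments. T cell marker genes were accessible in every label, from 621 to 1146 FPM summed over 6 genes, lowest in CD8aa in both libraries. The low sum came from Cd5, Cd28 and Bcl11b. Cd3e, Cd3d and Cd3g had 71.9, 142 and 115 FPM in CD8aa of the cecum against 65.2, 139 and 119 in CD4 cells. The sum of the gamma-delta markers, 4 of 5 measured, was highest in Rorgt gdT (540 FPM in cecum and 564 in tumor). Sox13, Blk and Cd163l1 were each highest there, but Trdc was highest in Cytotoxic gdT (77.8 and 68.0 FPM). The sum of the innate-like markers was also highest in Rorgt gdT (657 and 606 FPM), where most of it was Zbtb16 (522 and 473). Klrb1c was highest in Innate-like T#2 in both libraries and Fcer1g in CD8aa, while Tyrobp was highest in Th2 in cecum and in CD8aa in tumor. Ncr1 was highest in Th2, at 1.76 and 4.56 FPM, below the 5.27 and 6.83 FPM of 3 fragments in that label. By class it was highest in gamma-delta cells of the cecum (1.35 FPM) and in innate-like cells of the tumor (2.32 FPM). B cell, myeloid and epithelial markers gave 60.6 to 226 FPM in every label, no list was at 0, and the part of other cells in the results was not tested. The B cell and myeloid sums were highest in Tfh-like in cecum (226 and 142 FPM) and in Innate-like T#2 in tumor (207 and 120).

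The coreceptor genes separated the classes, and the regulators did so to a smaller extent. In CD8ab against CD4 cells, 2 of the 5 genes, Cd8a and Cd8b1, were at least 2-fold higher in both libraries, beside 0.936% of the 16673 genes with at least 50 fragments over both classes in each library, and 0 of 5 were at least 2-fold lower, beside 1.14%. With each gene placed by the smaller of its ratios in the 2 libraries, Cd8a ranked 1 of the 16673 genes from the highest and Cd8b1 ranked 4. Cd4 ranked 336 and Zbtb7b 521 from the lowest, and Runx3 ranked 1714 from the highest. The median over all genes was 0.01 in cecum and 0.04 in tumor on the log2 scale.

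**Figure D1:**
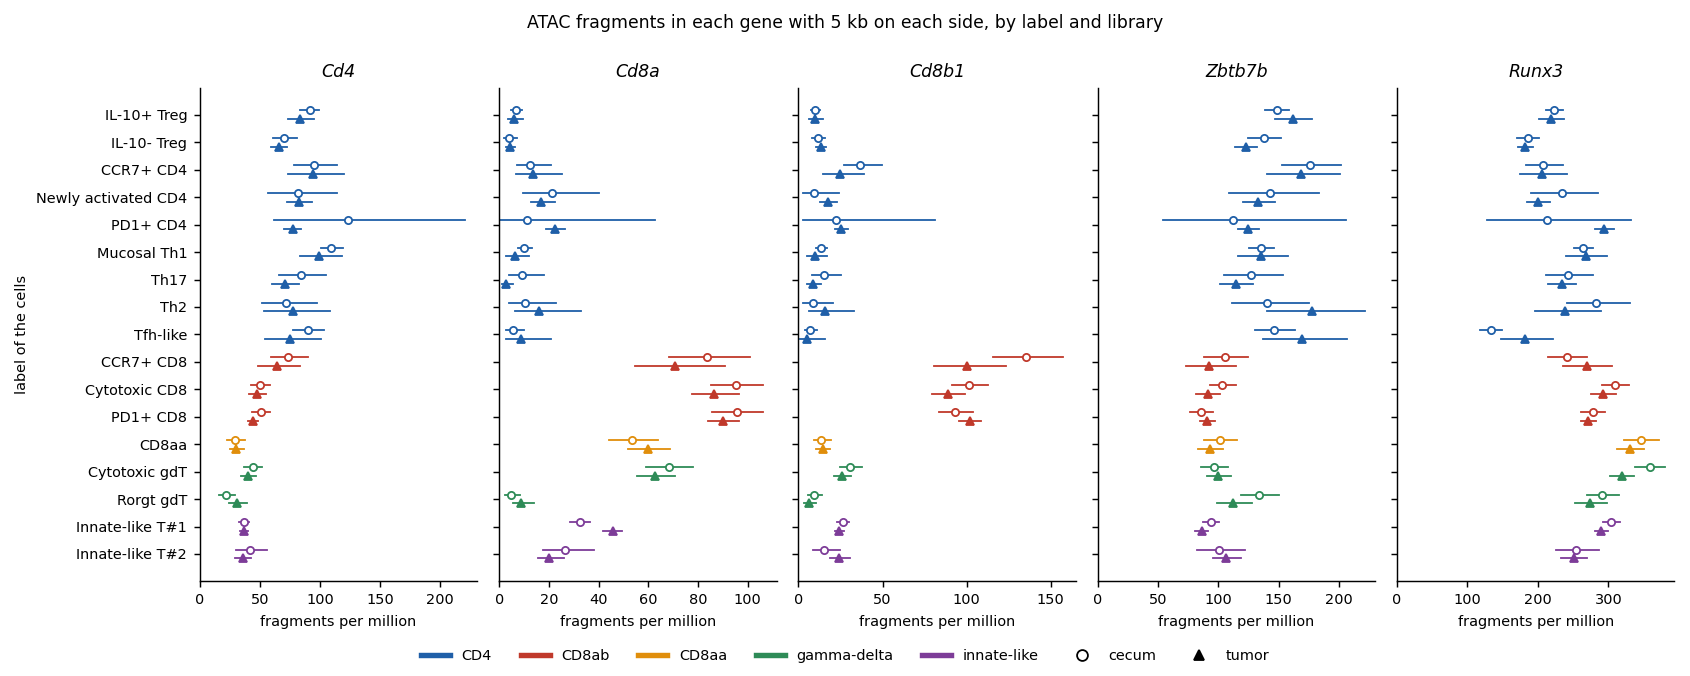
Fragments per 1000000 (FPM) at each of the 5 genes (panels) in each of the 17 labels, with open circles for the cecum, filled triangles for the tumor, bars for exact 95% Poisson intervals and colors for the 5 classes. Cd8a lies between 70.9 and 95.5 FPM in the 3 CD8ab labels and at 22.3 FPM or less in the 9 CD4 labels, while Runx3 and Zbtb7b differ by less between classes.

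Cd8a encodes the alpha chain and lies at chr6:71373427-71379171 of GRCm38.p6 (gene ID 12525), read toward higher coordinates. In the cecum its level was 83.5 FPM in CCR7+ CD8, 95.3 in Cytotoxic CD8 and 95.5 in PD1+ CD8, and in tumor it was 70.9, 86.6 and 90.0. The 9 CD4 labels had a lowest level of 4.00 FPM (IL-10- Treg), a median of 10.0 and a highest of 21.1 (Newly activated CD4) in cecum. In the tumor they had a lowest of 2.56 (Th17), a median of 8.92 and a highest of 22.3 (PD1+ CD4). No CD4 label overlapped a CD8ab label in either library, and the share of all genes without such overlap is not given here. Pooled, CD8ab cells had 93.6 FPM against 7.99 in CD4 cells in cecum and 87.8 against 11.5 in tumor. This is 11.7-fold (log2 3.55, interval 3.30 to 3.81) and 7.63-fold (2.93, 2.74 to 3.13).

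The CD4 level was below that of barcodes too small to be cells. Unlabelled barcodes with under 100 fragments each gave 21.5 FPM at Cd8a in cecum and 25.5 in tumor, more than the pooled CD4 class in both. The PD1+ CD4 cells of the tumor, at 22.3 FPM (18.7 to 26.4), were above the 6.18 FPM of Mucosal Th1 by 1.85 on the log2 scale (0.83 to 3.09). Without PD1+ CD4 the tumor ratio of CD8ab over CD4 was 3.53 on the log2 scale, close to that of the cecum. That setting was added after the values had been seen.

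Outside the CD4 and CD8ab labels, Cd8a accessibility was split. CD8aa cells had 53.4 FPM in cecum and 59.8 in tumor, and Cytotoxic gdT had 68.1 and 62.7. Rorgt gdT had 4.63 and 8.94 FPM, within the range of the CD4 labels. Cytotoxic gdT thus exceeded Rorgt gdT by 3.88 on the log2 scale (2.97 to 4.96) in cecum and by 2.81 (2.14 to 3.57) in tumor, and the gamma-delta class is a mixture of both. Innate-like T#1 had 32.5 and 45.6 FPM and Innate-like T#2 had 26.4 and 20.2. The innate-like labels differed beyond counting error in tumor, by 1.17 (0.79 to 1.58), and the interval in cecum, -0.27 to 0.92, included 0.

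The promoter of Cd8a, printed here because CD4 cells had few fragments there and the 4 other classes had more, is the run of 250 bases before the start at chr6:71373177-71373426 (GRCm38.p6, plus strand, from RefSeq).
Cd8a promoter: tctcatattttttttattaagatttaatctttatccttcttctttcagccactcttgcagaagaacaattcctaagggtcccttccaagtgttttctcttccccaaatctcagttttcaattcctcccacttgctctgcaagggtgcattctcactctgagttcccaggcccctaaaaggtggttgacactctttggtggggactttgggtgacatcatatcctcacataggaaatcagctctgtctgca
It holds no capitals because no RUNX core motif, as described for Runx3 further on, was found in it, and 42.8% of its bases are G or C. Over this run and the 50 bases after the start, CD8ab cells had 9.56 FPM in cecum and 9.86 in tumor, CD8aa 9.75 and 10.7, the gamma-delta class 6.38 and 6.49, the innate-like class 6.35 and 8.32, and CD4 cells 0.83 and 1.09. The gamma-delta value came from Cytotoxic gdT, with 10.6 and 9.54 FPM, while Rorgt gdT had 1 fragment in each library, or 0.46 and 0.47 FPM. CD8ab exceeded CD4 by 3.53 on the log2 scale (2.74 to 4.40) and by 3.18 (2.56 to 3.86). CD8aa and CD8ab did not separate at the promoter, with a ratio of 0.03 (-0.74 to 0.74) in cecum.

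Cd8b1 encodes the beta chain and lies below Cd8a at chr6:71322788-71337492 (gene ID 12526). Its level was 135 FPM in CCR7+ CD8, 102 in Cytotoxic CD8 and 93.3 in PD1+ CD8 of the cecum, and 100 (100.2), 89.0 and 102 FPM in tumor. The CD4 labels had a lowest of 6.57 (Tfh-like), a median of 11.3 and a highest of 36.9 FPM (CCR7+ CD4) in cecum. In the tumor they had a lowest of 5.35 (Tfh-like), a median of 13.3 and a highest of 25.4 FPM (PD1+ CD4). Each CD8ab label was above every other label in both libraries, and the share of all genes with such an order is not given here. The pooled ratio of CD8ab over CD4 was 8.18-fold (log2 3.03, 2.82 to 3.24) in cecum and 6.08-fold (2.60, 2.44 to 2.77) in tumor.

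CD8aa cells differed most from CD8ab cells at this gene, at 13.5 FPM (9.01 to 19.3) in cecum and 14.5 (10.7 to 19.1) in tumor. Their ratio over CD8ab was -2.94 on the log2 scale (-3.53 to -2.41) and -2.77 (-3.20 to -2.36). Cd8b1 was the 1 of the 5 genes that was at least 2-fold lower in CD8aa than in CD8ab in both libraries, beside 1.98% of 15119 genes, and it ranked 11 from the lowest. None of the 5 was 2-fold higher, beside 0.747%. Against CD4 cells, Cd8b1 in CD8aa gave 0.09 (-0.52 to 0.65) and -0.16 (-0.62 to 0.26). Over the window with 5 kb on each side, CD8aa and CD4 cells thus did not separate. At the tile of the gene's start, given further on, CD8aa cells were below CD4 cells beyond counting error in both libraries. Barcodes with under 100 fragments gave 22.3 and 20.9 FPM at Cd8b1, above CD8aa in both libraries. Cytotoxic gdT, at 30.6 and 26 FPM, and Innate-like T#1, at 26.5 and 24.4, were above CD8aa beyond counting error in both libraries, and Rorgt gdT had 9.25 and 6.12 FPM.

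Among CD4 cells, CCR7+ CD4 had the highest level of Cd8b1 in cecum and, with PD1+ CD4, in tumor. CCR7+ CD4 exceeded Mucosal Th1 by 1.45 (0.88 to 2.02) in cecum and 1.297 (0.19 to 2.45) in tumor on the log2 scale, the latter from 18 and 13 fragments. PD1+ CD4 of the tumor exceeded Mucosal Th1 by 1.34 (0.52 to 2.28). CCR7 marks naive and recirculating cells. CCR7+ CD4 nevertheless had less than CCR7+ CD8, by -1.88 (-2.39 to -1.39) and -2.02 (-2.84 to -1.28). At Cd8a the difference between CCR7+ CD4 and Mucosal Th1 had intervals that included 0 in both libraries, -0.61 to 1.17 and -0.34 to 2.69. The median of fragments per cell was 8588 in CCR7+ CD4 of the cecum and 3898.5 in tumor, against 4425.5 and 5090 in Mucosal Th1. PD1+ CD4 of the tumor had a median of 9642.5. Whether depth per cell plays a part in these levels was not tested.

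**Figure D2:**
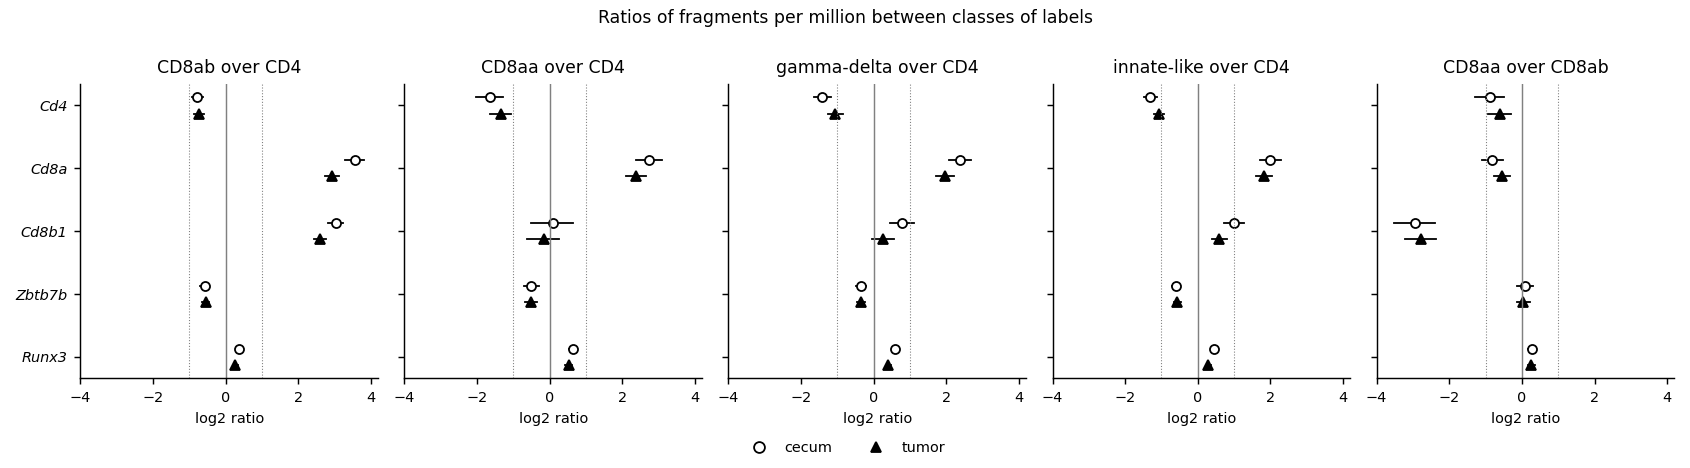
Log2 ratios of the 5 genes in 5 comparisons between classes, cecum and tumor side by side, with exact 95% intervals and dotted lines at a 2-fold difference. Cd8a is above the upper line in the 4 comparisons except CD8aa over CD8ab, where Cd8b1 is below the lower line at -2.94 and -2.77.

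The tiles of the Cd8 region showed which stretches carried these differences. Of its 214 tiles, 66 had at least 20 fragments over CD8ab and CD4 cells in each library, and 65 of them (98.5%) were at least 2-fold higher in CD8ab cells in both libraries, beside 4.25% of 187549 tiles over all chromosomes. None was 2-fold lower, beside 6.81%. Of the 66, 61 did not reach the minimum in CD4 cells alone and passed with the CD8ab cells, which favours higher ratios. In CD4 cells alone 5 tiles passed, and all 5 were higher in CD8ab. The count of 65 was 32 after removal of cells with over 3 times the median of fragments, 23 with a minimum of 50 fragments and 17 with short fragments alone.

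The tile at chr6:71322501-71323000 holds the lower end of Cd8b1, where the gene starts, and also overlaps the lncRNA gene Gm38828. CD8ab cells had 22.5 FPM there in cecum and 22.8 in tumor, and CD4 cells had 4.78 and 4.51. CD8aa cells had 1 fragment in cecum and 5 in tumor, or 0.46 and 1.45 FPM, a ratio over CD8ab of -5.60 (-10.91 to -3.10) and -3.98 (-5.62 to -2.74). CD8aa cells were below CD4 cells at this tile as well, by -3.36 (-8.68 to -0.85) and -1.64 (-3.30 to -0.37). The label with the most was CCR7+ CD8, with 40.9 and 40.5 FPM, and CCR7+ CD4 had 16.8 and 11 FPM, more than the 3.79 and 3.09 of Mucosal Th1. A second tile inside Cd8b1, chr6:71325001-71325500, had 7.38 and 5.58 FPM in CD8ab cells and 0.46 FPM in CD8aa cells of the cecum, from 1 fragment. CD8aa cells of the tumor had 0 fragments there, which allows up to 0.87 FPM.

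CD8aa cells shared other stretches with CD8ab cells. The tile at chr6:71357501-71358000 lies 15.7 kb below the start of Cd8a, between the CD8 genes, and overlaps no gene of the annotation. CD8aa cells had 18.1 FPM there in cecum and 15.3 in tumor, and CD8ab cells had 13.4 and 14.2. By the mean of both libraries it was the strongest tile of CD8aa cells in the region, but not in tumor alone. The ratio of CD8aa over CD8ab was 0.43 (-0.14 to 0.97) and 0.11 (-0.36 to 0.55), so they did not separate. Cytotoxic gdT had 16 and 19.8 FPM and Innate-like T#1 had 9.42 and 10.7. Rorgt gdT had 0.92 and 0.94 FPM, and CD4 cells had 0.88 and 1.82. An enhancer between the CD8 genes that works in mature CD8 T cells and in gut intraepithelial lymphocytes is known, but no map of it was among the sources used here, and no tile was matched to it.

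The start of Cd8a behaved likewise. In the tile at chr6:71373001-71373500 CD8ab cells had 10.4 and 11.2 FPM, CD8aa 9.75 and 13.9, the gamma-delta class 7.35 and 7.44, the innate-like class 7.12 and 9.22, and CD4 cells 0.93 and 1.13. CD8aa over CD8ab was -0.10 (-0.86 to 0.61) and 0.31 (-0.19 to 0.79). The tile at chr6:71364001-71364500, 9.18 kb below the start, was among the highest ratios of 4 classes over CD4. CD8ab exceeded CD4 there by 3.97 (2.81 to 5.36) and 4.26 (3.07 to 5.76), CD8aa by 4.16 (2.76 to 5.71) and 4.24 (2.83 to 5.87), and the gamma-delta class by 3.61 (2.35 to 5.08) and 3.93 (2.61 to 5.50).

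Other tiles beside Cd8a had less in CD8aa than in CD8ab cells. The strongest tile of the CD8ab class, chr6:71369501-71370000 at 3.68 kb below the start, was picked after the values had been seen. It had 26.1 and 23.2 FPM in CD8ab, 14.4 and 15.6 in CD8aa, 22.9 and 19.8 in Cytotoxic gdT, and 1.45 and 2.95 in CD4. CD8aa over CD8ab was -0.86 (-1.45 to -0.31) and -0.57 (-1.02 to -0.15). The gap was wider in the tile at chr6:71381501-71382000, 2.58 kb past the end of Cd8a, also picked after the values had been seen. There CD8ab cells had 18.5 and 20.7 FPM and CD8aa cells 3.71 and 6.07, a ratio of -2.32 (-3.56 to -1.304) and -1.77 (-2.48 to -1.13). Over the region, 21 of 62 tiles were at least 2-fold lower in CD8aa than in CD8ab in both libraries, beside 5.83% of 98367 tiles, and 0 were higher, beside 3.49%. All 21 were among the 51 tiles that passed the minimum in CD8ab cells alone, the class in which they were higher. The 21 became 13 after removal of cells with many fragments, 8 with a minimum of 50 fragments and 9 with short fragments.

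The whole-gene value of Cd8a in CD8aa, -0.81 (-1.11 to -0.53) and -0.55 (-0.77 to -0.34) against CD8ab, therefore depended on the window. Within the gene span alone it was -0.22 in cecum and 0.0038 in tumor. Within 1 kb of the gene ends it was -0.46 in cecum and 0.11 in tumor.

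**Figure D3:**
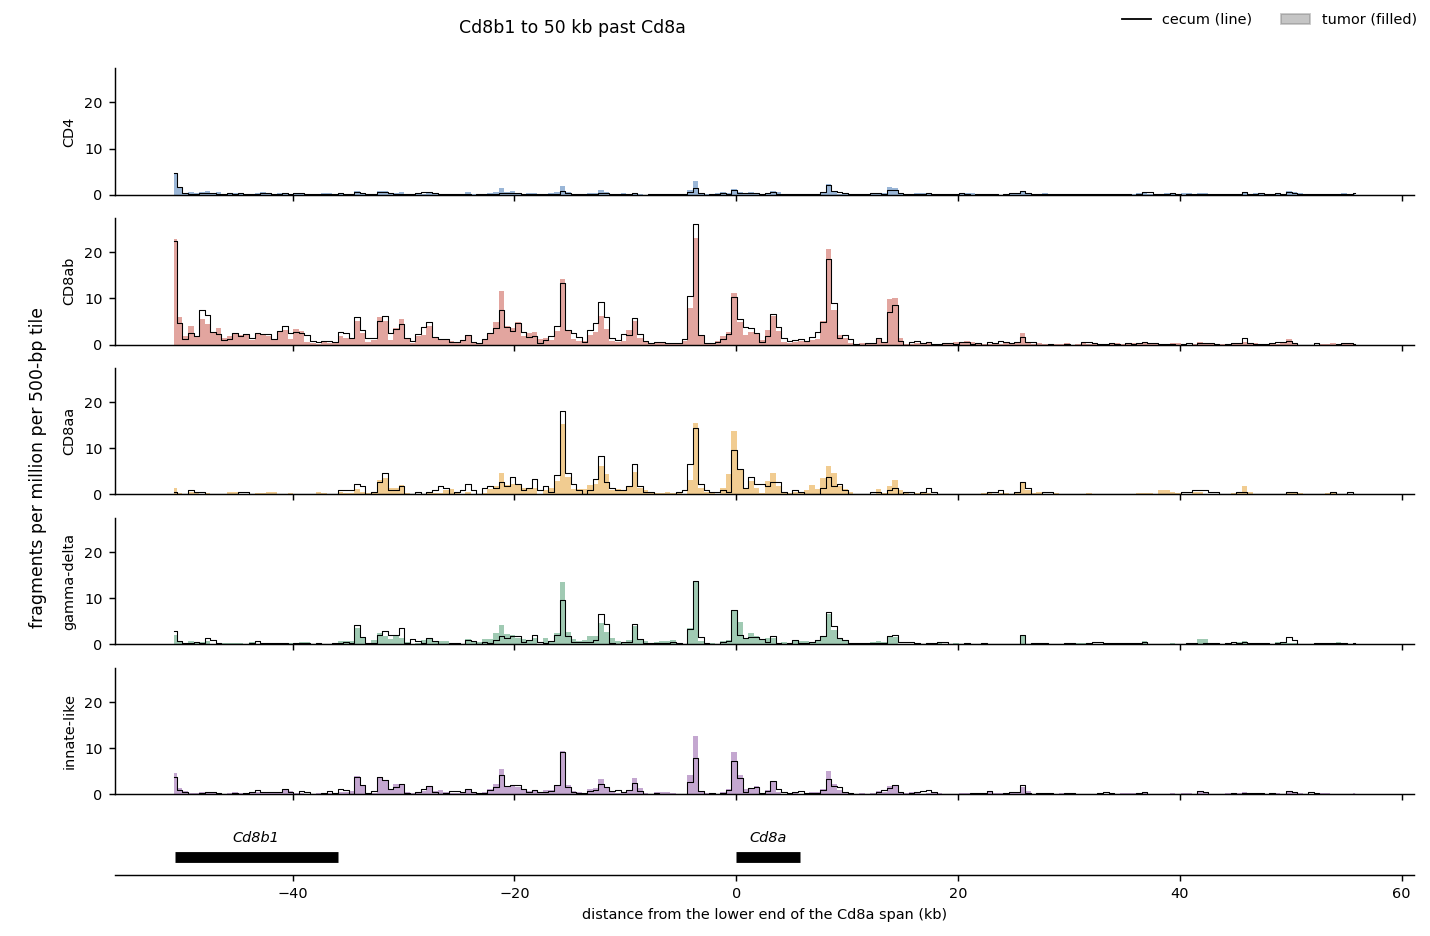
FPM in 500-bp tiles from Cd8b1 to 50 kb past Cd8a in the 5 classes (panels), with the distance from the lower end of the Cd8a span in kb on the x axis, a black line for the cecum, a filled area for the tumor and bars for the genes. CD8aa cells have a peak of 18.1 and 15.3 FPM at 15.7 kb below Cd8a and none at the start of Cd8b1, where CD8ab cells reach 22.5 and 22.8 FPM.

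Cd4 encodes the helper coreceptor and lies at chr6:124864693-124888247 (gene ID 12504). Part of the lncRNA gene Gm32404 and of Gpr162 lies in its window. The CD4 labels had a lowest level of 70.3 FPM (IL-10- Treg), a median of 90.0 and a highest of 123 (PD1+ CD4, from 11 fragments) in cecum. In the tumor they had a lowest of 66.0 (IL-10- Treg), a median of 77.5 and a highest of 99.6 (Mucosal Th1). Among CD8 labels, CCR7+ CD8 had 73.2 and 64.2 FPM, Cytotoxic CD8 49.9 and 47.4, and PD1+ CD8 50.5 and 44.2. CCR7+ CD8 was thus among the CD4 labels in cecum, above IL-10- Treg and Th2. In tumor it was just under IL-10- Treg, from which it did not separate, with IL-10- Treg over CCR7+ CD8 at 0.04 (-0.36 to 0.47). CD8aa cells had 29.2 and 30.3 FPM, Rorgt gdT 21.7 and 31.0, Cytotoxic gdT 43.9 and 40.1, Innate-like T#1 36.8 and 36.7, and Innate-like T#2 41.5 and 35.5. All of these were below every CD4 label, and the share of all genes with such an order is not given here.

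Pooled, Cd4 had 92.2 FPM in the CD4 class and 53.7 in CD8ab in cecum, and 76.9 and 46.3 in tumor. The ratio of CD8ab over CD4 was -0.78 (-0.93 to -0.63) and -0.73 (-0.86 to -0.60), short of 2-fold. Within 1 kb of the gene ends it was -1.11 and -1.03, past 2-fold. CD8aa was lower than CD4 by -1.66 (-2.04 to -1.29) and -1.34 (-1.64 to -1.06), and lower than CD8ab too, by -0.88 (-1.28 to -0.50) and -0.61 (-0.92 to -0.31). Barcodes with under 100 fragments gave 44.8 and 36.4 FPM at Cd4, so the CD8aa, gamma-delta and innate-like classes, with 29.2 to 37.4 FPM, were close to or below that level. The neighbours in the order of labels mostly did not separate, with an interval off 0 for 1 of 16 neighbouring pairs in cecum and 0 of 16 in tumor.

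The region of Cd4 held stretches that the classes shared and stretches that only some had. Of 148 tiles, 54 had enough fragments in CD8ab and CD4 cells, and 11 (20.4%) were at least 2-fold lower in CD8ab in both libraries, beside 6.81% of all tiles, and 0 higher, beside 4.25%. All 11 were among the 46 tiles that passed in CD4 cells alone, the class in which they were higher, and the 11 became 7 with a minimum of 50 fragments and 4 with short fragments. The clearest was chr6:124888001-124888500, which holds the upper end of Cd4. Cd4 is read toward lower coordinates, so transcription starts at this end. CD4 cells had 6.18 FPM (119 fragments) in cecum and 6.12 (141 fragments) in tumor, and CD8ab cells had 0.97 and 0.58, from 8 fragments each. The ratio was -2.67 (-3.92 to -1.65) and -3.40 (-4.64 to -2.38). CD8aa cells had 0 fragments there in both libraries, which allows up to 1.39 FPM in cecum and 0.87 in tumor, and gamma-delta and innate-like cells had between 0.11 and 0.475 FPM.

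The strongest tile of CD4 cells was another one, chr6:124885001-124885500, inside the gene and 3.0 kb from its upper end. It was picked after the values had been seen. CD4 cells had 28.8 and 20.8 FPM there, CD8ab cells 14.5 and 9.64, CD8aa cells 3.25 and 4.62, gamma-delta cells 8.90 and 9.65, and innate-like cells 7.78 and 6.77. CD8aa cells were thus lower than CD8ab cells in this tile, with a ratio of -2.16 (-3.51 to -1.07) and -1.06 (-1.91 to -0.31). Mucosal Th1 had the highest level of all labels in both libraries, with 37.3 and 38.6 FPM, and the CD8 label with the most was CCR7+ CD8, with 18.1 and 16.9. The gamma-delta labels differed, with 13.3 and 13.1 FPM in Cytotoxic gdT against 2.78 and 2.82 in Rorgt gdT. Nearer the start, at chr6:124886001-124886500, CD8ab cells had 5.33 and 6.31 FPM, CD4 cells 4.41 and 4.86, and CD8aa cells 1.39 and 1.16. CCR7+ CD8 had 16.5 and 9.01 FPM in that tile, against 3.61 and 6.67 in PD1+ CD8.

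Beyond the gene, the tile at chr6:124901001-124901500, 13 kb outside the upper end and in no gene of the annotation, divided the classes another way. CD4 cells had 8.93 and 11.5 FPM and innate-like cells 8.76 and 10.8, with a ratio of -0.03 (-0.43 to 0.36) and -0.10 (-0.38 to 0.19). CD8ab cells had 2.54 and 2.39 FPM, lower than CD4 by -1.81 (-2.54 to -1.15) and -2.27 (-2.83 to -1.74). Innate-like cells exceeded CD8ab cells by 1.79 (1.08 to 2.55) and 2.17 (1.62 to 2.76), although at the start of Cd4 they had 0.11 and 0.45 FPM against 0.97 and 0.58. The tile at chr6:124857001-124857500, in the neighbouring gene P3h3, was among the strongest of every class and was picked after the values had been seen. It had 12.2 to 18.5 FPM in all 5 classes and both libraries. Tiles in the next gene Lag3, an inhibitory receptor related to CD4, were higher in CD8aa than in CD4 cells, by 1.52 (0.79 to 2.20) and 1.39 (0.78 to 1.97) at chr6:124910001-124910500.

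**Figure D4:**
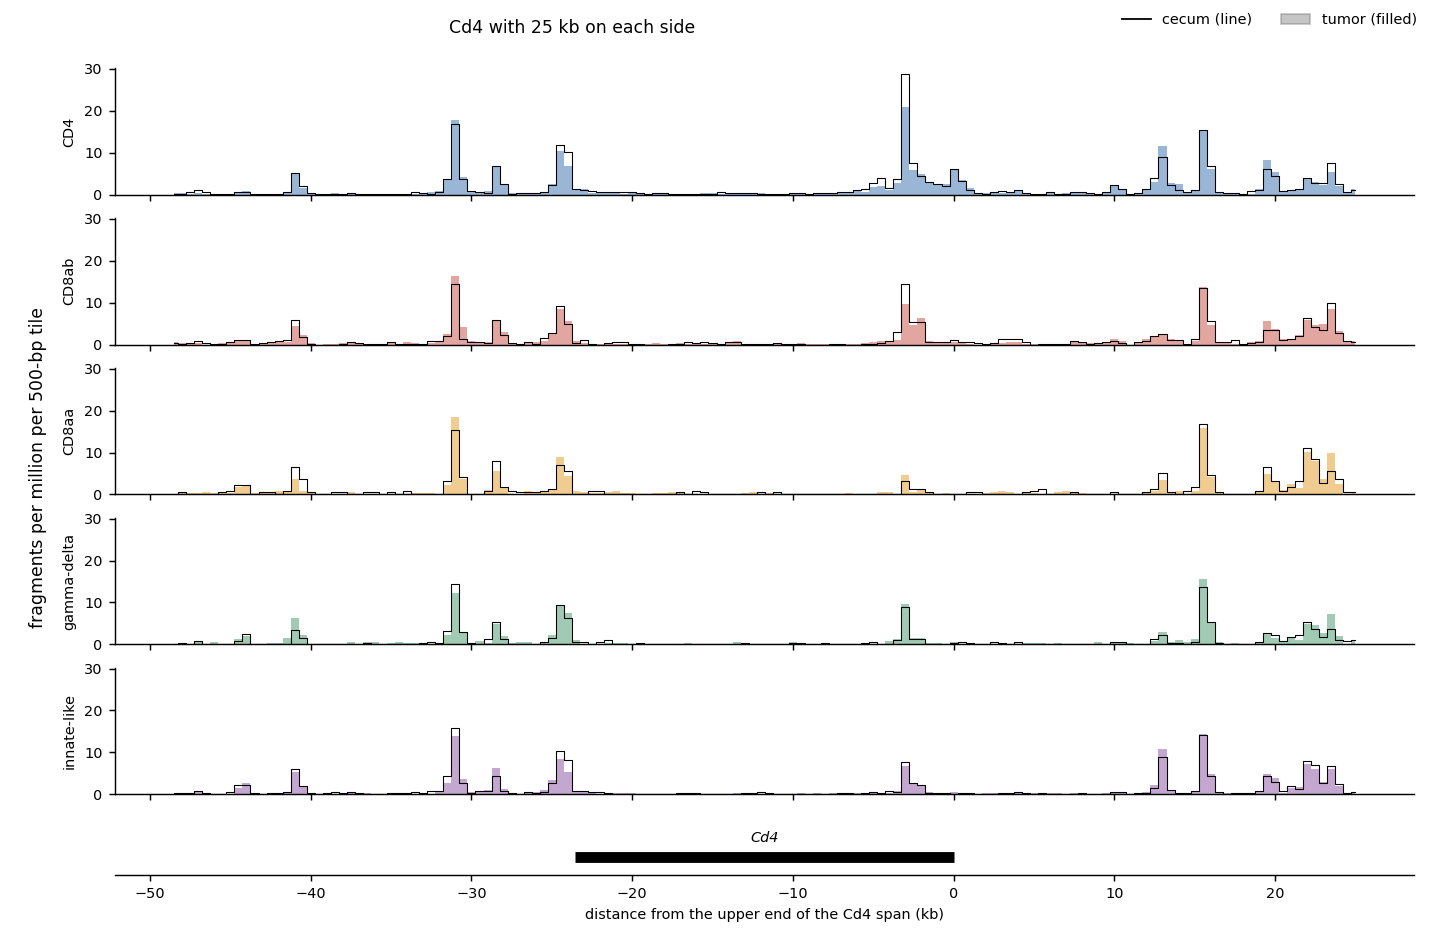
FPM in 500-bp tiles around Cd4 in the 5 classes (panels), with the distance from the upper end of the Cd4 span in kb on the x axis, a black line for the cecum, a filled area for the tumor and bars for the genes. The tile 3.0 kb inside the upper end reaches 28.8 and 20.8 FPM in CD4 cells and 3.25 and 4.62 FPM in CD8aa cells.

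Zbtb7b encodes ThPOK and lies at chr3:89377644-89393673 (gene ID 22724), read toward lower coordinates, with the lncRNA gene Gm15417 over its upper part. In the cecum the CD4 labels had a lowest level of 112 FPM (PD1+ CD4, from 10 fragments), a median of 141 and a highest of 176 (CCR7+ CD4). In the tumor they had a lowest of 115 (Th17), a median of 136 and a highest of 178 (Th2). The CD8ab labels had 105 (CCR7+ CD8), 103 (Cytotoxic CD8) and 85.8 FPM (PD1+ CD8) in cecum and 92.3, 91.1 and 90.8 in tumor. By level alone, all CD4 labels were above all CD8ab labels in both libraries, by little, and the closest labels did not separate. In cecum PD1+ CD4 exceeded CCR7+ CD8 by 0.09 on the log2 scale, with an interval that included 0. In tumor the interval of Th17, 101 to 129 FPM, overlapped that of CCR7+ CD8, 73.4 to 115 FPM. The share of all genes with such an order of labels is not given here. The pooled ratio of CD8ab over CD4 was -0.58 (-0.69 to -0.46) and -0.55 (-0.64 to -0.45).

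CD8aa cells and the pooled innate-like class were at the level of CD8ab cells. CD8aa over CD8ab was 0.08 (-0.15 to 0.29) and 0.04 (-0.14 to 0.21), with 101 and 93.3 FPM in CD8aa. Innate-like T#1 had 94.1 and 86.1 FPM, and Innate-like T#2 had 101 (100.9) and 107. The ratio of Innate-like T#1 over T#2 was -0.31 (-0.49 to -0.13) in tumor, and the interval in cecum, -0.39 to 0.21, included 0. Rorgt gdT, with 134 and 112 FPM, lay among or just under the CD4 labels, while Cytotoxic gdT had 96.4 and 100 (100.2). The labels of gamma-delta cells differed beyond counting error in cecum, by -0.48 (-0.72 to -0.24) for Cytotoxic over Rorgt gdT, and the interval in tumor, -0.40 to 0.07, included 0. Among Treg cells, IL-10+ exceeded IL-10- by 0.40 (0.22 to 0.57) in tumor and by 0.11 (-0.06 to 0.28) in cecum.

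Of the 40 tiles of the Zbtb7b region with enough fragments, which include neighbouring genes, 5 (12.5%) were at least 2-fold lower in CD8ab than in CD4 cells in both libraries, beside 6.81% of all tiles, and 0 higher, beside 4.25%. All 5 lay inside the gene and passed in CD4 cells alone, the class in which they were higher. The count was 3 with short fragments. The tile at chr3:89382001-89382500 had 4.00 and 2.43 FPM in CD4 cells, 0.36 and 0.73 in CD8ab, 0.44 and 0.19 in innate-like cells, and 0.46 in CD8aa of the cecum. CD8aa of the tumor had 0 fragments, which allows up to 0.87 FPM. CD8ab over CD4 was -3.46 (-5.77 to -1.86) and -1.75 (-2.88 to -0.76), and innate-like over CD4 was -3.19 (-5.10 to -1.77) and -3.65 (-5.97 to -2.03). The label with the most in this tile was CCR7+ CD4, with 10.9 and 5.48 FPM. The tile at chr3:89393501-89394000, which holds the upper end of the gene span, had 43.8 and 37.8 FPM in CD4, 27.0 and 23.6 in CD8ab, 44.1 and 37.9 in CD8aa and 41.4 and 41.2 in gamma-delta cells. CD8aa exceeded CD8ab there by 0.71 (0.35 to 1.06) and 0.68 (0.38 to 0.98).

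The RefSeq promoters used here include 2 starts of Zbtb7b, both inside the gene span, which reaches further up. At the outer of these starts, chr3:89393378, the run of 250 bases before and 50 after had 11.9 and 9.38 FPM in CD4 cells and 8.23 and 6.96 in CD8ab cells. The inner start, chr3:89387671, was far weaker, with 1.35 and 2.47 FPM in CD4 cells and 0.61 and 0.51 in CD8ab cells, a ratio of -1.16 (-2.89 to 0.25) and -2.29 (-3.66 to -1.15). Its promoter is printed because it is the one of the pair that holds a RUNX core motif, TGTGGT, on the gene's strand, 89 to 84 bases before the start and in capitals. It lies at chr3:89387672-89387921 (GRCm38.p6, minus strand, from RefSeq).
Zbtb7b inner promoter: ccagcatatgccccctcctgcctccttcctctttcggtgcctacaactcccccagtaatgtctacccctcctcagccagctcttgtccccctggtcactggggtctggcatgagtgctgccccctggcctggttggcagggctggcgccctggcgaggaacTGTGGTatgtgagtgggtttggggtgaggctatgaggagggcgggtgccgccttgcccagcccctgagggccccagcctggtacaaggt
The search covered TGTGGT and TGCGGT on both strands, which read ACCACA and ACCGCA on the other strand, and 18.6% of 32851 promoter runs of the same length hold at least 1 of them. A match is a run of letters and not a measured binding site.

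Runx3 encodes the killer lineage factor and lies at chr4:135120645-135177990 (gene ID 12399), read toward higher coordinates. The CD4 labels had a lowest of 133 FPM (Tfh-like), a median of 223 and a highest of 283 (Th2) in cecum, and a lowest of 182 (Tfh-like), a median of 219 and a highest of 294 (PD1+ CD4) in tumor. The CD8ab labels had 241 (CCR7+ CD8), 309.9 (Cytotoxic CD8) and 278 FPM (PD1+ CD8) in cecum and 269, 292 and 272 in tumor, so CD4 and CD8ab labels overlapped in both libraries. CD8aa cells had 347 and 331 FPM and Cytotoxic gdT 359 and 319, the highest of all labels in one library or the other. Rorgt gdT had 291 and 274, Innate-like T#1 304 and 290.1, and Innate-like T#2 255 and 251.

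The pooled ratios over CD4 were positive in all 4 other classes. CD8ab over CD4 was 0.37 (0.30 to 0.44) in cecum and 0.27 (0.21 to 0.33) in tumor, CD8aa over CD4 was 0.65 (0.54 to 0.76) and 0.52 (0.43 to 0.62), and gamma-delta over CD4 was 0.58 (0.50 to 0.66) and 0.40 (0.32 to 0.48). CD8aa exceeded CD8ab by 0.28 (0.16 to 0.40) and 0.26 (0.16 to 0.35). None of these reached 2-fold. Within the CD4 class, Tfh-like cells were below Mucosal Th1 by -0.99 (-1.18 to -0.81) and -0.56 (-0.89 to -0.24), and IL-10+ Treg exceeded IL-10- Treg by 0.27 (0.12 to 0.42) and 0.26 (0.12 to 0.41). Tfh-like of the cecum also had the highest B cell and myeloid marker sums, and whether other cells play a part here was not tested.

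Runx3 has a distal and a proximal start, and they went in opposite directions. The distal promoter, at chr4:135120395-135120644 (GRCm38.p6, plus strand), is the one linked to the killer lineage, and the proximal promoter lies at chr4:135152295-135152544 on the same strand. Both are printed to show how they differ, with RUNX core motifs in capitals, sequences from RefSeq.
Runx3 distal promoter: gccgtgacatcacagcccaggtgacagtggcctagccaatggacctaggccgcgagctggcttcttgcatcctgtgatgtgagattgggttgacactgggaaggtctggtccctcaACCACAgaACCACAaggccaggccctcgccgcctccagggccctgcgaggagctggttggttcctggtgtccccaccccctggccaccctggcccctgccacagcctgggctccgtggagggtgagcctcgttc
Runx3 proximal promoter: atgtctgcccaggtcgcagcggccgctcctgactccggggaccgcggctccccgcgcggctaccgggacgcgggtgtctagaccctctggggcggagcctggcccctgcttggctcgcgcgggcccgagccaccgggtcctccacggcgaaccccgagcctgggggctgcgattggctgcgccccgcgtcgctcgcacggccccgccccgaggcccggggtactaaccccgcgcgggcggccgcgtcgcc
The distal run holds 2 copies of the motif TGTGGT on the strand opposite to the gene, 134 to 129 and 126 to 121 bases before the start, and 2.01% of promoter runs hold 2 or more RUNX core motifs. The proximal run holds none, and 78.8% of its bases are G or C against 65.2% in the distal run.

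Over these runs and the 50 bases after each start, the distal promoter had 40.5 and 38.6 FPM in CD4 cells, 54.0 and 53.5 in CD8ab, 65.4 and 63.0 in CD8aa, 53.2 and 48.9 in gamma-delta and 61.2 and 54.9 in innate-like cells. CD8ab exceeded CD4 by 0.41 (0.24 to 0.58) and 0.47 (0.33 to 0.61). The proximal promoter had 15.9 and 13.6 FPM in CD4 cells, 9.32 and 10.8 in CD8ab and 9.28 and 8.67 in CD8aa. CD8ab was lower than CD4 there, by -0.77 (-1.15 to -0.41) and -0.33 (-0.62 to -0.04). The stretch of the distal promoter was thus well open in CD4 cells too. The lncRNA gene Gm16225, at chr4:135118221-135120376, has a start beside this run, and its share of the fragments was not separated.

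Single tiles differed more than the whole gene. Of the 117 tiles of the Runx3 region, gene and flanks, with enough fragments, 31 were at least 2-fold higher in CD8ab than in CD4 cells in both libraries, beside 4.25% of all tiles, and 0 lower, beside 6.81%. Most of the 31 passed only through the CD8ab cells, since 69 tiles passed in CD4 cells alone and 7 of these were higher. The 31 became 16 after removal of cells with many fragments, 9 with a minimum of 50 fragments and 4 with short fragments, and the 0 lower became 1 under the first of these settings and 2 on a shifted grid. The tile at chr4:135131001-135131500, 10.6 kb from the distal start, had the highest ratio in all 5 comparisons. CD4 cells had 1.09 and 0.74 FPM, CD8ab 6.90 and 4.35, CD8aa 14.4 and 11.8, gamma-delta cells 13.5 and 12.3, and innate-like cells 16.4 and 14. CD8ab exceeded CD4 by 2.66 (1.92 to 3.46) and 2.56 (1.76 to 3.43), innate-like cells by 3.91 (3.25 to 4.65) and 4.24 (3.53 to 5.05), and CD8aa exceeded CD8ab by 1.06 (0.38 to 1.72) and 1.45 (0.84 to 2.04). The gamma-delta value came from Cytotoxic gdT, with 22.6 and 18.6 FPM, since Rorgt gdT had 0.92 FPM in cecum and 0 fragments in tumor. This is the same division between the gamma-delta labels as at Cd8a.

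Another tile, chr4:135169001-135169500 at 48.6 kb from the distal start, varied within the classes as well as between them. It was picked after the values had been seen. CD8aa cells had 47.3 and 42.8 FPM, Cytotoxic gdT 41.9 and 38.6, and Rorgt gdT 24.5 and 35.3. Among CD8ab labels, Cytotoxic CD8 had 28.3 and 29.8 FPM, PD1+ CD8 18.3 and 18.9, and CCR7+ CD8 2.36 and 11.3. Among CD4 labels, Mucosal Th1 had 19.1 and 18.5 FPM and PD1+ CD4 of the tumor 28.0, while CCR7+ CD4 had 1.68 and 1.37 and Tfh-like 2.34 and 1.78. In both lineages the CCR7+ label was thus below the cytotoxic or Th1 label of the same class.

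Upstream of Runx3, the tile at chr4:135098501-135099000, 21.9 kb before the distal start, had 20.3 and 19.9 FPM in Innate-like T#1 and 15.8 and 13.3 in CD8aa, against 2.91 and 2.73 in CD4 cells. CD8aa over CD4 was 2.44 (1.78 to 3.08) and 2.28 (1.70 to 2.85). The tile at chr4:135160001-135160500 had its highest level in Rorgt gdT, 20.4 and 16.5 FPM, with 10.2 and 12.8 in IL-10+ Treg and 5.93 and 4.86 in CD8ab cells. The tile at chr4:135105001-135105500 was higher in CD8ab, with 2.42 and 3.12 FPM, than in CD4 cells, with 0.57 and 0.74, and CD8aa cells had 1 fragment there in each library.

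**Figure D5:**
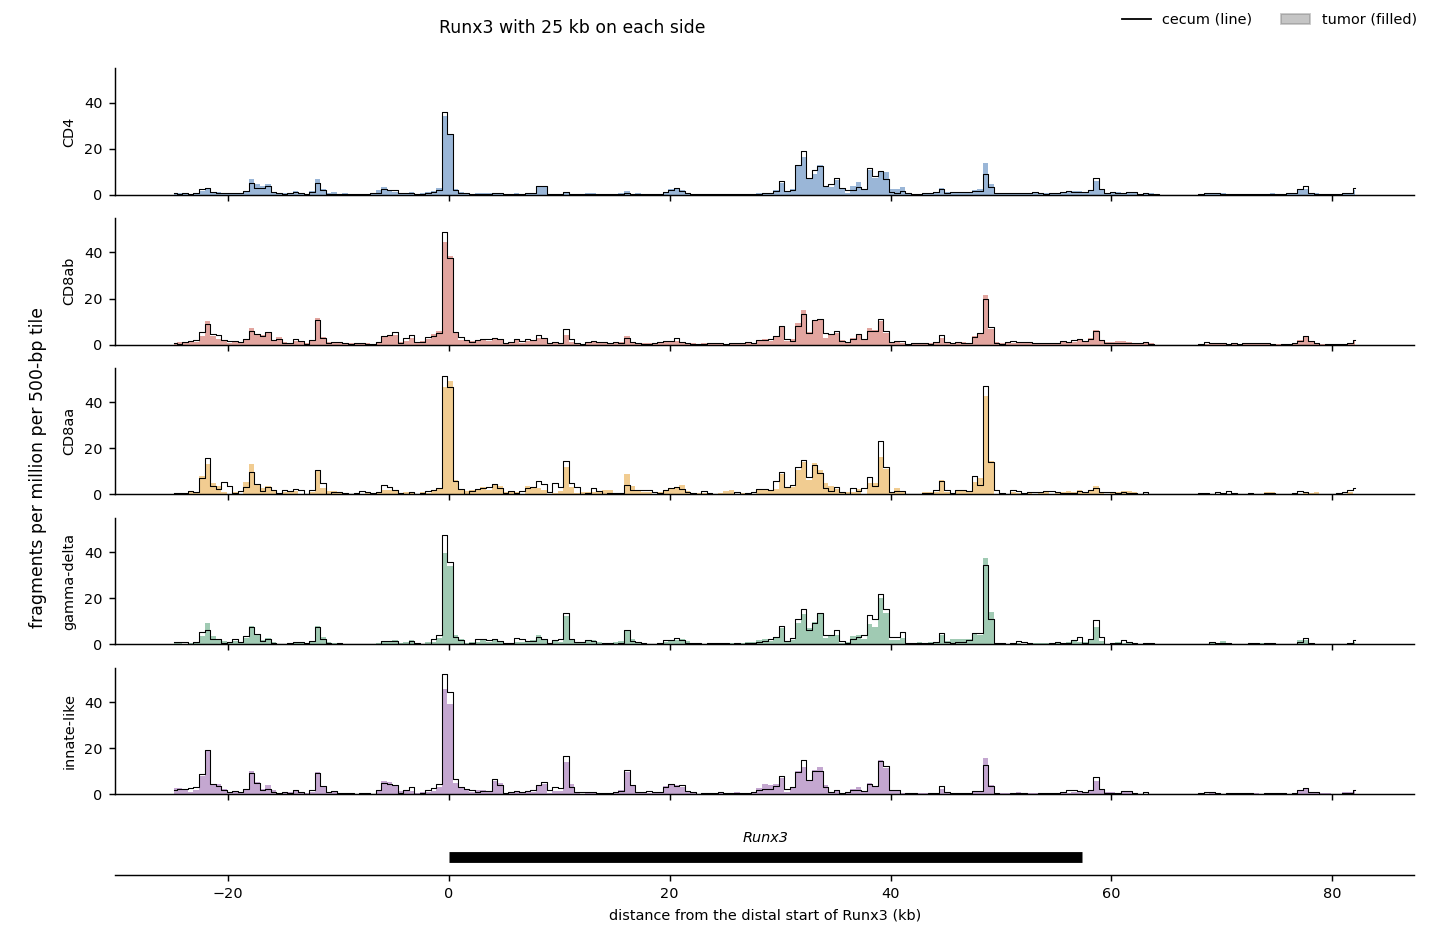
FPM in 500-bp tiles around Runx3 in the 5 classes (panels), with the distance from the distal start of Runx3 in kb on the x axis, a black line for the cecum, a filled area for the tumor and bars for the genes. The peak 10.6 kb from the start is at 1.09 FPM or less in CD4 cells and between 11.8 and 16.4 FPM in CD8aa, gamma-delta and innate-like cells.

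In the CD8aa, gamma-delta and innate-like classes, Cd8a was at least 2-fold higher and Cd4 at least 2-fold lower than in CD4 cells in both libraries. The Cd8a value of the gamma-delta class came from Cytotoxic gdT (68.1 and 62.7 FPM), since Rorgt gdT, with 438 of the 961 cells in cecum and 273 of 868 in tumor, had 4.63 and 8.94 FPM against 7.99 and 11.5 in CD4 cells. These comparisons share the CD4 cells. For CD8aa the background was 1.77% of genes higher and 3.97% lower, and Cd8a was higher by 2.74 (2.38 to 3.10) and 2.38 (2.11 to 2.65). For the gamma-delta class it was 1.52% higher and 1.42% lower, with Cd8a higher by 2.38 (2.07 to 2.69) and 1.96 (1.71 to 2.20) and Cd4 lower by -1.41 (-1.64 to -1.19) and -1.05 (-1.26 to -0.86). For the innate-like class it was 2.78% higher and 2.33% lower, with Cd8a higher by 1.99 (1.70 to 2.28) and 1.82 (1.61 to 2.03) and Cd4 lower by -1.303 (-1.47 to -1.14) and -1.08 (-1.21 to -0.94). Among 16185 genes, Cd8a ranked 24 from the highest in CD8aa over CD4.

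Tiles were also counted against CD4 cells. In the Cd8 region 8 of 13 tiles were higher in CD8aa, 14 of 19 in gamma-delta (4 with short fragments) and 23 of 28 in innate-like cells, beside 5.6%, 4.51% and 9.07% of tiles over all chromosomes, and most of these tiles also passed the minimum only through the class compared. Of the 5 that passed in CD4 cells alone, 1, 2 and 1 were higher and 1, 1 and 0 lower. In the Cd4 region 13 of 47 tiles were lower in CD8aa, 21 of 49 in gamma-delta and 19 of 51 in innate-like cells, beside 9.47%, 7.4% and 10.6%. There 2, 1 and 3 were higher, or 4.26%, 2.04% and 5.88%, beside 5.6%, 4.51% and 9.07%. All of these lower tiles were among the 46 that passed the minimum in CD4 cells alone, the class in which they were higher. At Zbtb7b 9 of 38, 8 of 40 and 11 of 41 tiles were lower, beside the same 9.47%, 7.4% and 10.6%. None was higher in any of the 3 comparisons, beside 5.6%, 4.51% and 9.07%. Of the lower Zbtb7b tiles, 9, 7 and 10 passed in CD4 cells alone, the class in which they were higher. At Runx3 13 of 79, 14 of 90 and 31 of 119 were higher, beside 5.6%, 4.51% and 9.07%. The 5, 1 and 9 lower ones were 6.33%, 1.11% and 7.56%, under the 9.47%, 7.4% and 10.6% of all tiles. Of the 69 Runx3 tiles that passed in CD4 cells alone, 10, 7 and 7 were higher and 5, 1 and 7 lower.

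Other genes of the pathway were read from 4 lists. Of 12 factors upstream of the lineage choice, 0 were 2-fold higher or lower in CD8ab than in CD4 cells in both libraries, beside 0.936% and 1.14% of all genes, and the median ratio was 0.04 in cecum and 0.02 in tumor. Tcf7, a factor of naive and memory T cells, was higher by 0.31 and 0.37 and its relative Lef1 by 0.32 and 0.24, while Tox was lower by -0.43 and -0.29 and Ets1 by -0.20 and -0.24. Of 14 RUNX partners and chromatin factors of coreceptor silencing, 0 passed 2-fold, with medians of 0.04 and 0.00. Smarce1, a subunit of the BAF remodelling complex, was lower by -0.42 and -0.64, and Runx1, the relative of Runx3, by -0.41 and -0.40. Of 12 signalling partners of the coreceptors, 0 passed, with medians of -0.0039 and 0.10. The kinase Lck was higher by 0.15 and 0.22, and the receptor chain Cd247 was lower by -0.23 and -0.46.

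Of 12 helper and cytotoxic lineage genes, 7 were at least 2-fold higher in CD8ab cells in both libraries, beside 0.936% of all genes, and 0 lower, beside 1.14%, with medians of 1.5 and 1.07. The list holds mostly killer lineage genes and was chosen with earlier results of these data known. Its counts therefore describe the list and are not a test. Prf1, which encodes perforin, was higher by 2.63 and 2.30, Crtam by 2.10 and 1.65, the granule protein gene Nkg7 by 1.92 and 1.58, the factor Eomes by 1.38 and 1.18, and the chemokine Ccl5 by 1.62 and 1.10. The helper gene Cd40lg, the ligand of CD40, is named in addition to those of largest ratio and was lower by -0.93 and -1.60. In CD8aa, gamma-delta and innate-like cells 6 of the 12 were higher and 1 lower than in CD4 cells, in each class, beside 1.77%, 1.52% and 2.78% of all genes higher and 3.97%, 1.42% and 2.33% lower.

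Across the 16 labels with at least 50 cells in both libraries, Cd8a and Cd8b1 followed each other with Pearson's r of 0.80 in cecum and 0.81 in tumor, and Cd4 and Zbtb7b with 0.59 and 0.75. Zbtb7b ran against Cd8a (-0.80 and -0.67) and against Runx3 (-0.62 and -0.72). Labels of a library share its depth and preparation, so these values describe the labels and carry no p. For the search that follows, genes within 500 kb on the same chromosome were left out, so Cd8a and Cd8b1 could not be named for each other. Of the remaining genes, those whose levels followed each gene most closely, by the smaller r of the 2 libraries, are given. For Cd4 they were Inpp4b (0.89), Galnt9 (0.87) and Ifi27l2a (0.86), and for Cd8a Mag (0.87), Fasl (0.84) and Prf1 (0.84). They were Hdgfl3 (0.79), Gm10840 (0.77) and Spats2 (0.75) for Cd8b1, St3gal2 (0.85), Dpy30 (0.84) and Hif1a (0.80) for Zbtb7b, and Wdfy4 (0.86), Mta3 (0.85) and Gcnt2 (0.85) for Runx3. With labels of at least 200 cells, only 1 of these 15 genes was among the closest again.

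Between tissues, few single labels separated. Of 85 pairs of gene and label, the interval of the ratio of tumor over cecum lay above 0 for 2 and below 0 for 4. With at least 50 fragments over both libraries, 2 of 75 (2.67%) lay above and 3 (4%) below, beside 5.53% and 5.73% of 226741 pairs of all genes and labels. Cd8a in Innate-like T#1 had 32.5 FPM in cecum and 45.6 in tumor, a ratio of 0.49 (0.28 to 0.71), and Runx3 in Tfh-like cells had 133 and 182, a ratio of 0.45 (0.11 to 0.78). Cd8b1 in CCR7+ CD8 was lower in tumor by -0.43 (-0.82 to -0.06), and Runx3 in Cytotoxic gdT by -0.17 (-0.28 to -0.05). The CD4 class had more Cd8a in tumor, by 0.53 (0.23 to 0.82), and 137 of its 265 tumor fragments there came from PD1+ CD4. The CD4 class also had more Cd8b1, by 0.36 (0.12 to 0.60) but -0.081 within 1 kb of the gene ends, and less Cd4, by -0.26 (-0.36 to -0.17), and CD8ab cells had less Cd4, by -0.21 (-0.39 to -0.04). The innate-like class had more Cd8a, by 0.36 (0.15 to 0.56), but not within the gene span alone, where the ratio was -0.017. In the other classes with an interval off 0, Zbtb7b of CD4 cells and Runx3 of CD4, gamma-delta and innate-like cells, the ratio lay between -0.12 and 0.06. Pooled classes also differ between tissues in the share of each label. Animal, library and tissue cannot be told apart here.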

How the data were processed

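T cells of cecum and AKP tumor were profiled by single-nucleus multiome sequencing, 1 library per tissue. The authors aligned reads and listed fragments with Cell Ranger ARC (2.0.0, mm10 reference), and named 17 labels from clusters of the RNA. Per the file headers and columns, the deposited values were counts of read pairs per ATAC fragment, with positions and a barcode, and a table of labels for 15621 cells, which the authors had filtered by fragments, start site enrichment, genes and mitochondrial reads. Doublets were not called here.

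Each fragment was counted once where either end fell in a window (Python 3.11.15, scipy 1.17.1, numba 0.67.0, pandas 2.3.3, numpy 2.4.6). FPM are fragments per 1000000 of a label, over the span and 5 kb on each side. Levels have exact Poisson and log2 ratios exact conditional 95% intervals, which cover counting error only, and a count of 0 was set to 3 counts for a limit or ratio. Genes needed 50 fragments and tiles 20 over both classes in each library, and a 2-fold ratio in both libraries counted as a call. The counting was tested on simulated data. Libraries were read at 4.29 (cecum) and 3.11 (tumor) read pairs per fragment. Gene positions and promoters were those of RefSeq on GRCm38.p6. Cd4 and Cd8b1 promoters and sequence by coordinate were not used here.

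The genes and lists were chosen with earlier results of these data known. Named were all 5 genes and, per locus and comparison, up to 3 tiles of highest and lowest ratio. Also named were the 3 genes most like each gene among those over 500 kb away or on another chromosome. Lists gave up to 5 genes each, with Cd40lg in addition. Some items are not reported here. Other tiles are said to be picked after their values were seen. Alternatives were cell filters, windows, scaling, pooling, short fragments, tile grid and minimum, and the likeness settings. Leaving PD1+ CD4 out of the CD4 class was added after the data had been seen. Figures were drawn with matplotlib 3.10.9.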

Additional observations from a re-analysis of the deposited data

Results flagged for a closer look

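Some ratios had opposite signs in the 2 libraries, and some ratios of tumor over cecum had opposite signs in 2 labels, and none of these differences was tested. Cd4 in innate-like over gamma-delta cells was 0.11 in cecum and -0.021 in tumor on the log2 scale. Cd8b1 in CD8aa over CD4 cells was 0.094 and -0.16, with intervals that included 0 in both. These are values of the window with 5 kb on each side, and at the start tile of Cd8b1 CD8aa cells were lower in both libraries. For tumor over cecum, Cd8a had a ratio of 0.49 in Innate-like T#1 and -1.84 in Th17, the latter from 6 and 8 fragments, and Runx3 had 0.45 in Tfh-like and -0.17 in Cytotoxic gdT.

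Barcodes without a label and with at least 1000 fragments, 1592 in cecum and 2044 in tumor, enter no comparison and also had fragments at the 5 genes. Their levels were 51.3 and 50.7 FPM at Cd4, 28.2 and 35.6 at Cd8a, 31.0 and 34.4 at Cd8b1, 118 and 106 at Zbtb7b, and 233 and 243 at Runx3. What these barcodes hold was not tested.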

How the results depend on the processing

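No paired analysis was possible because each tissue has 1 library. Over 680 ratios between classes under the alternatives, 519 moved by less than their interval, 148 moved further and 13 changed sign. Over 770 ratios of tumor over cecum the counts were 714, 54 and 2. Changes of sign were counted only for ratios that were beyond counting error in the main setting. Cd8b1 in CD8aa over CD4 is therefore not among them.

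Windows of 1 kb around the gene ends gave a changed sign for Cd8a in CD8aa over CD8ab of the tumor (0.11), for Cd8b1 (cecum, -0.46) and Zbtb7b (tumor, 0.024) in gamma-delta over CD4, for Cd4 (tumor, 0.18) and Runx3 (-0.15 and -0.22) in gamma-delta over CD8ab, for Cd4 in innate-like over CD8ab (cecum, 0.21), for Cd8a (cecum, 0.040) and Runx3 (0.22 and 0.19) in innate-like over gamma-delta, and for Cd8b1 of the CD4 class in tumor over cecum (-0.081). The span alone did so for Cd8a in CD8aa over CD8ab of the tumor (0.0038), Cd8b1 in innate-like over CD4 (tumor, -0.14), Cd8a in innate-like over gamma-delta (cecum, 0.27) and Cd8a of the innate-like class in tumor over cecum (-0.017).

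For CD8ab over CD4, the gene ends gave -1.11 and -1.03 for Cd4, 2.25 and 2.38 for Cd8b1, -0.45 and -0.39 for Zbtb7b and 0.56 and 0.46 for Runx3. The span gave -0.99 and -0.90 for Cd4 and 0.20 for Runx3 of the tumor. Means over cells gave -0.94 for Cd4, 3.16 for Cd8a, -0.67 for Zbtb7b and 0.33 for Runx3 in tumor and 3.30 for Cd8b1 in cecum. Label medians gave 3.25 and 3.28 for Cd8a, 2.92 for Cd8b1 of the tumor and -0.45 for Zbtb7b of the cecum. Short fragments gave -0.91 for Cd4 and 2.84 for Cd8b1 in tumor. Without cells above 3 times the median, Cd8b1 of the cecum was 3.41. Without PD1+ CD4 the tumor gave 3.53 for Cd8a, 2.94 for Cd8b1 and 0.42 for Runx3. For CD8aa over CD8ab, Cd8a of the cecum was -0.46 at the gene ends and -0.22 in the span, Cd8a of the tumor -0.84 with short fragments, and Cd8b1 was -4.62 and -3.93 at the ends, -4.51 and -3.68 in the span and -3.25 with short fragments in tumor. The cause was not tested.

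Tile counts depended on the settings. At Cd8, CD8ab over CD4 had 65 higher tiles, and 32 without cells above 3 times the median, 23 at 50 fragments and 17 with short fragments. For CD8aa over CD8ab the 21 lower tiles became 13, 8 and 9, and for gamma-delta over CD4 the 14 higher became 8, 4 and 4 while 1 lower became 0 under these and the shifted grid. At Runx3 31 higher became 16, 9 and 4, and 0 lower became 1 without those cells and 2 on the shifted grid. At Cd4 11 lower became 7 at 50 fragments and 4 with short ones, with 1 higher in place of 0. At Zbtb7b 5 lower became 3 and 0 higher became 1 with short ones. A higher minimum and short fragments leave fewer tiles. Of the 15 genes most like the 5 genes, 1 was found again with labels of at least 200 cells. A count of 0, read as 3 fragments, allows up to 33.7 FPM in PD1+ CD4 of the cecum, against 1.39 and 0.87 in CD8aa.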
